A study of Mus musculus with 10 samples.

Results

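Methylation of lysine 9 of histone H3 (H3K9) is written by a small family of enzymes that share a SET domain, and 6 genes of this family were followed through every library of a Setdb1 deletion study in mouse oocytes. The genes were chosen by name, as every row of the deposited table whose symbol is Setdb1, Setdb2, Suv39h1, Suv39h2, Ehmt1 or Ehmt2. These are 16 RefSeq transcript rows of 34768, and 6 gene symbols of 24453. The unit is RPKM, a read number divided by transcript length and library total, so levels can be compared between genes per unit of length and within a library only as shares of its RNA.

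The libraries were made from germinal vesicle oocytes, full-grown oocytes still held in meiotic prophase, with 16 denuded oocytes of 1 C57Bl/6J mouse in each of 10 pools. The mutant group (Setdb1 f/-; Zp3-cre, 4 mice) carried a floxed and a deleted allele and the Zp3-cre transgene, whose promoter drives Cre recombinase in growing oocytes. One control genotype (f/+; Zp3-cre, 4 mice) paired the floxed allele with a wild-type one and had the same transgene, and the other (f/-, 2 mice) had the alleles of the mutant without Cre. Either control genotype leaves the oocyte 1 allele that Cre does not remove, so no group had 2 intact alleles. Cre under this promoter acts after oocyte growth has begun, so earlier stages and the other ovarian cells of a mutant mouse keep the floxed allele. Each library is a separate mouse. Where no group size is given, mean ± SD refers to the 4 mutants and to all 6 controls.

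H3K9 methylation marks silent chromatin. SETDB1 is brought to endogenous retroviruses and other targets by the corepressor TRIM28 and places trimethylation there, and SETDB2 is its closest relative. SUV39H1 and SUV39H2 trimethylate H3K9 in the repeats around centromeres, where HP1 proteins bind the mark. EHMT1 (GLP) and EHMT2 (G9a) work as a pair and place mono- and dimethylation, mostly in gene-rich chromatin.

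The libraries held about 45800000 to 72800000 reads, as estimated from the spacing of low values. All 10 oocyte markers examined were above 0 in every library, among them Zp3 (882 to 1236 RPKM) and Gdf9 (1531 to 2438 RPKM). In mutants 1 of the 10 was lower, Kit (34.1 to 49.4 RPKM against 66.6 to 79.8 in controls, limma adjusted p = 0.00084), and 1 higher, Nobox (274 ± 25.5 against 205 ± 21.3, adjusted p = 0.023). Zp2 had 346 ± 29.1 RPKM in mutants and 453 ± 85.3 in controls (limma adjusted p = 0.12). Of the 12 granulosa and cumulus markers, 6 passed the filter on low values. Their list summed to 76.8 to 109 RPKM in mutants, 90.1 to 104 in f/+; Zp3-cre and 75.3 to 76.1 in f/-. Most of it came from Serpine2, with Nr5a2 at 8.04 to 18.4 RPKM and Cyp19a1 at 3.78 to 10.9 RPKM over all libraries. Ptx3 was at 0 throughout and Foxl2 stayed at or below 0.371 RPKM. The 6 theca and stroma markers summed to at most 3.29 RPKM, with Cyp17a1, Lhcgr and Col3a1 at 0 throughout. The 8 blood, immune and endothelial markers summed to 22.0 to 42.7 RPKM in mutants, 29.9 to 40.2 in f/+; Zp3-cre and 45.4 to 46.8 in f/-. Most of it came from C1qb (10.8 to 19.9 RPKM over all libraries) and Pecam1 (7.14 to 27.1 RPKM). Cd68 reached 7.99 RPKM in a mutant, and both hemoglobin genes examined (Hbb-b1, Hba-a1) were at 0.

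**Figure D1:**
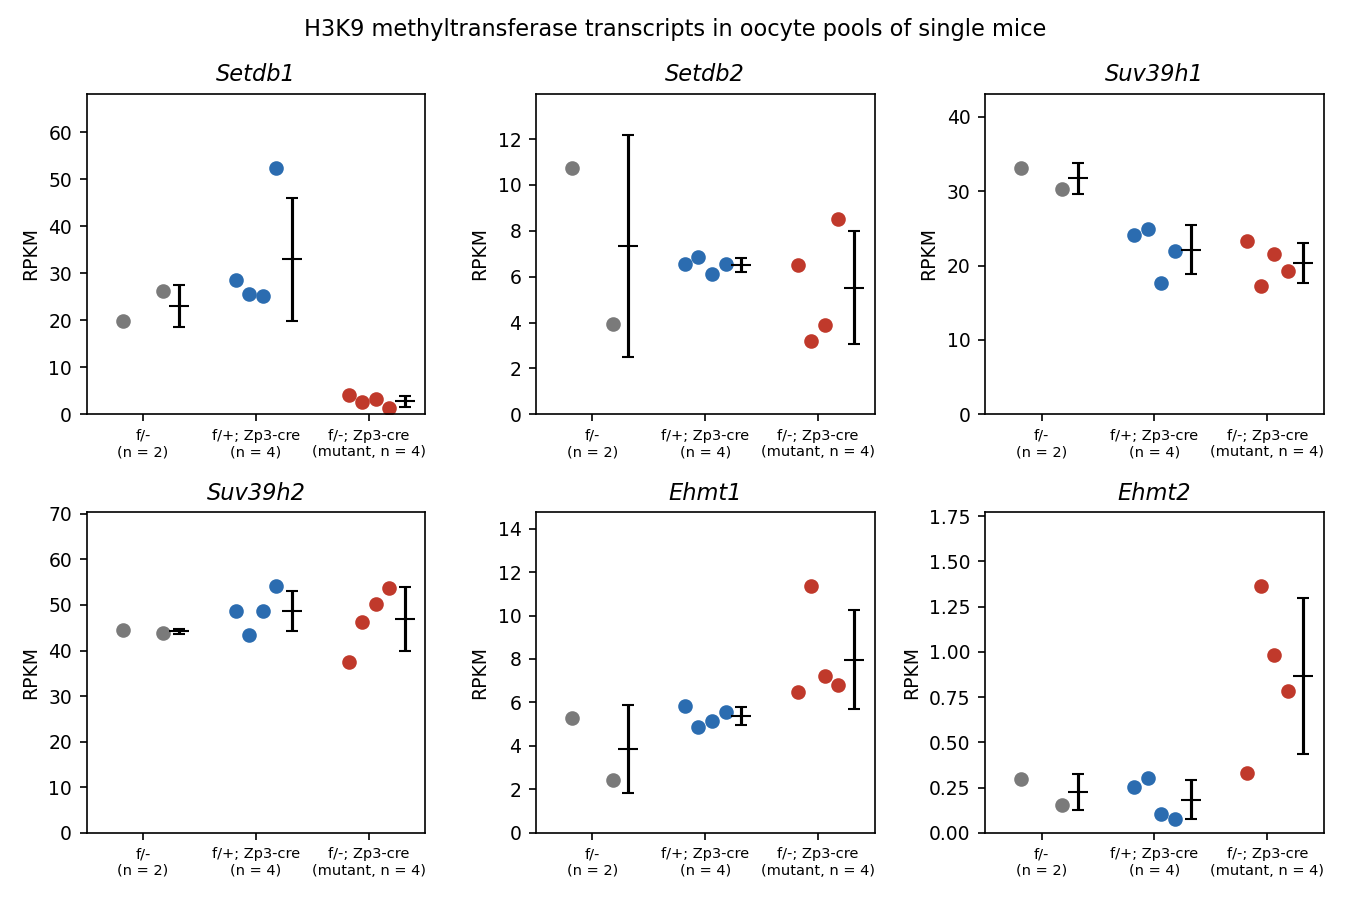
RPKM of the 6 H3K9 methyltransferase genes (vertical axes, linear, each panel with its own scale from 0) in the f/- (grey), f/+; Zp3-cre (blue) and mutant f/-; Zp3-cre (red) libraries; each point is 1 mouse and the black bars are group mean and SD. Setdb1 is at 1.31 to 4.06 RPKM in the mutants against at least 19.9 in controls, and the Ehmt1 and Ehmt2 points of the mutants lie above all control points.

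Setdb1, the deleted gene, came first as a check of the labels. Its RPKM was 4.06, 2.55, 3.32 and 1.31 in the mutant libraries, 28.6, 25.7, 25.1 and 52.5 in f/+; Zp3-cre and 19.9 and 26.3 in f/-. Every mutant library was far below every control, and f/+; Zp3-cre replicate 4 was the highest of all. The mutant mean of 2.81 ± 1.17 RPKM (SD, n = 4) and the control mean of 29.7 ± 11.5 RPKM (SD, n = 6) put the remaining level at 9.47%. Setdb1 fell by 3.20 on the log2(RPKM + 0.5) scale (95% interval -3.80 to -2.59), and the exact permutation test (two-sided) gave p = 0.0048, which is as low as 210 ways of choosing 4 of 10 libraries can give. The difference was -3.35 against f/+; Zp3-cre (adjusted p = 4.1e-05) and -2.90 against f/- (adjusted p = 0.0011), both from limma over all tested genes in comparisons that share the mutant libraries. Against the 2 f/- libraries the call was lost with array weights, which down-weight variable libraries (log2 difference -2.71, limma adjusted p = 0.12).

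The fall was the same in all 3 RefSeq rows of Setdb1. Within any library their RPKM differed by a factor of at most 1.01, so the table does not separate the transcripts. Setdb1 (Entrez gene 84505) lies on chromosome 3 from 95323525 to 95357202 of GRCm38, on the minus strand. It shares 75 exon bases with Cers2 and 249 with Gm37500, both on the opposite strand, and strand was not marked in these libraries. The level of Cers2 was 24.0 ± 4.59 RPKM in mutants, against 20.6 ± 2.92 in controls. The residual signal was roughly 356 to 1150 reads per mutant library. Which exon is floxed was not stated in the sources used, so these reads were not assigned to deleted or undeleted exons. In pooled oocytes, fewer oocytes with the transcript and less transcript in each oocyte cannot be told apart.

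Setdb2, the closest relative of the deleted gene, was low and variable. It had 6.50, 3.19, 3.89 and 8.52 RPKM in the mutants, 6.55, 6.86, 6.12 and 6.57 in f/+; Zp3-cre and 10.8 and 3.92 in f/-. The f/+; Zp3-cre libraries were close together, whereas the mutants and the f/- pair each reached both above and below them. The group means were 5.53 ± 2.45 RPKM in mutants and 6.80 ± 2.22 in controls, and the difference of -0.31 on the log2 scale did not pass (95% interval -0.95 to 0.32, limma adjusted p = 0.60). Against f/+; Zp3-cre the difference was -0.31 (-1.03 to 0.41, adjusted p = 0.67). Against f/- it was -0.32 (-1.20 to 0.56, adjusted p = 0.69), and it turned to 0.35 without f/- replicate 1. The ratio of Setdb1 to Setdb2 RPKM was 0.154 to 0.854 in mutants and 1.85 to 7.99 in controls, so Setdb2 was the more abundant of the pair in all 4 mutants and the less abundant in all 6 controls. Setdb2 (Entrez gene 239122; chromosome 14, 59402009 to 59440884, minus strand) has 1 row in the table and shares no exon sequence with another annotated gene.

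Suv39h2 was the most abundant of the 6 genes in all 10 libraries. Over the 6 controls together it varied least of the 6 genes (CV 8.72%), but within f/+; Zp3-cre Setdb2 (4.70%) and Ehmt1 (7.86%) varied less than Suv39h2 (8.98%), and within mutants Suv39h1 (13.1%) less than Suv39h2 (14.8%). It had 37.6, 46.2, 50.3 and 53.6 RPKM in the mutants, 48.6, 43.5, 48.6 and 54.2 in f/+; Zp3-cre and 44.6 and 43.8 in f/-. The ranges overlapped, with mutant replicate 1 the lowest of all. The means were 46.9 ± 6.94 RPKM in mutants and 47.2 ± 4.12 in controls, a log2 difference of -0.02 (95% interval -0.27 to 0.24, limma adjusted p = 0.96). The sign of so small a value turned without mutant replicate 1 (0.09) or f/+; Zp3-cre replicate 4 (0.02). Its difference from f/+; Zp3-cre was -0.06 (95% interval -0.34 to 0.21) and that from f/- 0.07 (-0.26 to 0.41).

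Suv39h1, the X-linked partner of Suv39h2, stood at 23.3, 17.3, 21.6 and 19.2 RPKM in the mutants, 24.1, 24.9, 17.6 and 22.0 in f/+; Zp3-cre and 33.2 and 30.3 in f/-. The f/- libraries were above all 8 others, and mutants and f/+; Zp3-cre overlapped. Of all tested genes, 9.18% had mutants wholly below f/- and 11.3% had f/- wholly above f/+; Zp3-cre. Against all controls the means were 20.4 ± 2.66 and 25.4 ± 5.63 RPKM, a log2 difference of -0.29 that did not pass (95% interval -0.66 to 0.08, limma adjusted p = 0.38). Against f/- the difference was -0.64 (95% interval -1.03 to -0.24, limma adjusted p = 0.067), and against f/+; Zp3-cre it was -0.12 (-0.44 to 0.21, adjusted p = 0.73). The f/- pair differed from f/+; Zp3-cre by 0.52 (95% interval 0.12 to 0.92, limma adjusted p = 0.24), and neither of these differences from f/- passed. The ratio of Suv39h2 to Suv39h1 RPKM was 1.61 to 2.79 in mutants and 1.34 to 2.76 in controls.

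Suv39h2 (Entrez gene 64707; chromosome 2, 3455815 to 3475031, minus strand) shares 357 exon bases with Dclre1c and 83 with Gm13184, both on the opposite strand. Dclre1c had 11.5 ± 2.24 RPKM in mutants and 12.4 ± 1.07 in controls. Suv39h1 (Entrez gene 20937; chromosome X, 8061171 to 8074760, minus strand) shares 767 exon bases with the antisense gene Gm14820. Reads of these partners that fall in the shared bases cannot be told apart from those of the methyltransferase genes. Each gene has 2 RefSeq rows, which differed within a library by a factor of at most 1.03 for Suv39h2 and 1.01 for Suv39h1. The Suv39h2 row used here, the higher on average, is annotated as a non-coding transcript.

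Ehmt1, which encodes GLP, had 6.46, 11.4, 7.23 and 6.81 RPKM in the mutants, 5.84, 4.89, 5.16 and 5.56 in f/+; Zp3-cre and 5.30 and 2.44 in f/-. All 4 mutant values lay above all 6 controls, with mutant replicate 2 well above the other mutants and f/- replicate 2 well below the other controls. The mean was 7.97 ± 2.28 RPKM in mutants, 1.64 times the control mean of 4.86 ± 1.23. The log2 difference of 0.67 (95% interval 0.12 to 1.21) had an unadjusted p of 0.020 and did not pass over all genes (limma adjusted p = 0.16). Among all tested genes, 16.1% had a larger difference. Against f/+; Zp3-cre it was 0.50 (95% interval -0.06 to 1.06, limma adjusted p = 0.32).

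Against f/- the Ehmt1 difference was 1.0 (95% interval 0.32 to 1.69, limma adjusted p = 0.091) and rested on 1 library. Without f/- replicate 1 it was 1.49 and passed (limma adjusted p = 0.016), and without f/- replicate 2 it was 0.51 (adjusted p = 0.40). Calls over all genes moved as well: 369 higher and 180 lower with both f/- libraries became 998 and 489 of 11349 without f/- replicate 1. With 1 library left in a group, its spread is assumed to equal that of the others. Ehmt1 (Entrez gene 77683; chromosome 2, 24789928 to 24919614, minus strand) has 4 rows, which differed by a factor of at most 1.12 within a library. It shares 21 exon bases with Gm37139 on the same strand.

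Ehmt2, which encodes G9a, was near the floor of the measurement in controls. It had 0.330, 1.36, 0.985 and 0.781 RPKM in the mutants, 0.251, 0.300, 0.104 and 0.0772 in f/+; Zp3-cre and 0.296 and 0.154 in f/-. All 4 mutants were above all 6 controls, although mutant replicate 1 exceeded the highest control only slightly. In approximate reads these values are 76 to 288 in mutants and 20 to 75 in controls. The mutant mean of 0.865 ± 0.431 RPKM was 4.39 times the control mean of 0.197 ± 0.0981.

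Ehmt2 averaged 0.464 RPKM over the 10 libraries and so missed the filter of 0.5 RPKM. In a fit without that filter the log2(RPKM + 0.5) difference was 0.92 (95% interval 0.43 to 1.42), with an unadjusted p of 0.0024 and a limma adjusted p of 0.10 over 24453 genes, of which 1.46% were called. The added 0.5 RPKM compresses a change at this level. Ehmt2 (Entrez gene 110147; chromosome 17, 34898469 to 34914052, plus strand) shares no exon sequence with another annotated gene, and its 4 rows differed by a factor of at most 1.07 within a library. The ratio of Ehmt1 to Ehmt2 RPKM was 7.34 to 19.6 in mutants and 15.8 to 71.9 in controls.

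Of the 6 genes, 5 passed the filter and were tested against all controls, and 1 (Setdb1) was lower, none higher and 4 not past the threshold. Over all 11338 tested genes, limma called 5.33% at an adjusted p below 0.05, 3.1% higher and 2.22% lower. The balance of 352 higher and 252 lower turned with other scalings, to 303 and 339 with median centring and 322 and 337 with quantile normalization. Of tested genes, 19.8% had an unadjusted p below 0.05. By position alone, 3 of the 6 genes had mutants that did not overlap controls, the deleted gene Setdb1 below and Ehmt1 and Ehmt2 above. Groups did not overlap in 8.18% of tested genes (4.62% higher, 3.56% lower), a set without Ehmt2. Mutants lay above all controls in 2.38% of all 24453 genes without the filter, a share taken over many genes at or near 0.

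Against f/+; Zp3-cre, where 4.89% of tested genes were called, and against f/-, where 4.84% were, Setdb1 was again the only one of the 5 tested family genes past the threshold. Mutants lay wholly above f/- in 13.7% of tested genes, as they did for Ehmt1. Between the control genotypes limma called 0.0706% of tested genes and none of the 5 tested family genes, of which Suv39h1 had an unadjusted p below 0.05 (0.015), as did 14% of tested genes. The share called between the control genotypes stayed low without f/- replicate 2 but rose strongly without f/- replicate 1. In the latter fit f/- replicate 2 stood alone for its genotype, with a spread assumed to equal that of the others. Which f/- library sets the share was not tested. Marker sums of other ovarian cells overlapped between mutants and f/+; Zp3-cre. Against f/- the granulosa sums of mutants were higher and the blood, immune and endothelial sums lower, without overlap. The granulosa gap was small (lowest mutant 76.8 RPKM, highest f/- 76.1). Serpine2 was higher in mutants (57.6 to 79.3 RPKM against 49.3 to 56.2), whereas Nr5a2, Cyp19a1 and Kitl overlapped. In the other list Pecam1 and Tie1 were lower in mutants, whereas C1qb, Cd68 and Kdr overlapped. The part of other ovarian cells in the Ehmt1, Ehmt2 and Suv39h1 values was not tested.

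**Figure D2:**
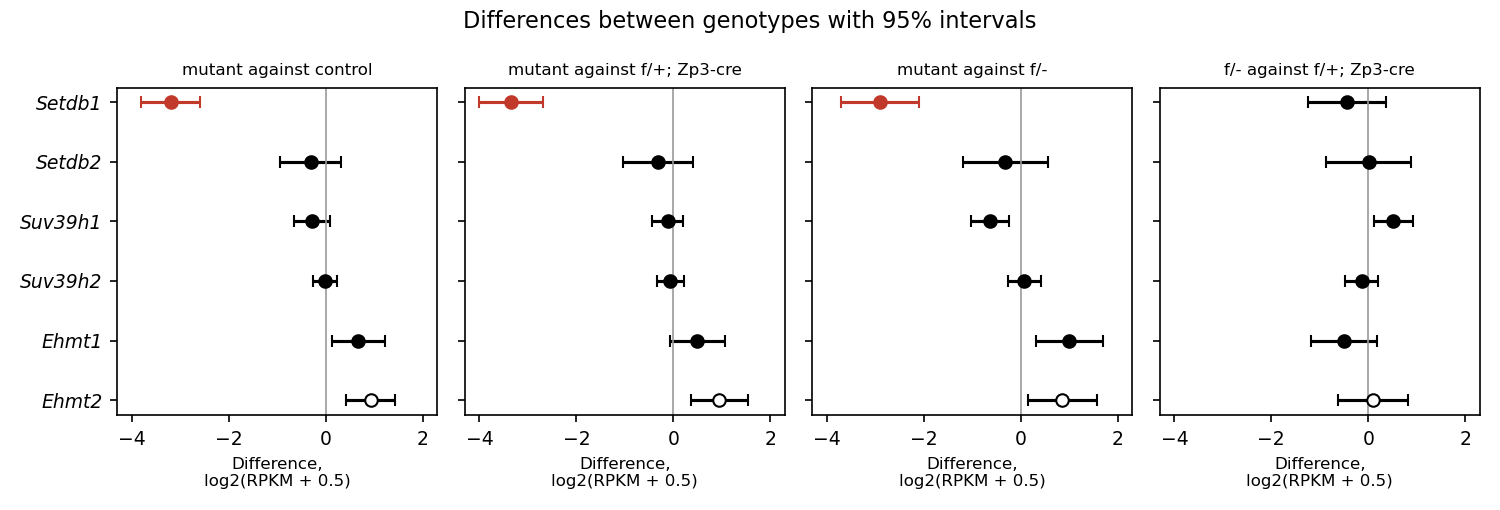
Difference in mean log2(RPKM + 0.5) (horizontal axis) with its 95% interval from limma for each gene in the 4 comparisons named above the panels; red marks an adjusted p below 0.05, and the open symbols of Ehmt2 come from the fit without a filter on low values. The Setdb1 intervals of the 3 comparisons with mutants lie below -2, and all other points are black.

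The windows just upstream of Ehmt1 and Ehmt2 are shown because both genes of the pair had mutants above all controls, with that of Setdb1 beside them. Each is the 200 bases before the annotated start (RefSeq, GRCm38.p6), written 5′ to 3′ on the gene's own strand, and capitals mark CpG dinucleotides. The Ehmt2 window belongs to the first of its 2 listed starts. The windows are chr3:95357203-95357402 for Setdb1, chr2:24919610-24919809 for Ehmt1 and chr17:34898274-34898473 for Ehmt2.
Setdb1: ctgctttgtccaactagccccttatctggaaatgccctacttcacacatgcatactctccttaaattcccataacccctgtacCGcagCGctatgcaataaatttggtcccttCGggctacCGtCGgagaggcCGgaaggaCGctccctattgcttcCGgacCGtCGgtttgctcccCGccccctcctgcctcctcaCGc
Ehmt1: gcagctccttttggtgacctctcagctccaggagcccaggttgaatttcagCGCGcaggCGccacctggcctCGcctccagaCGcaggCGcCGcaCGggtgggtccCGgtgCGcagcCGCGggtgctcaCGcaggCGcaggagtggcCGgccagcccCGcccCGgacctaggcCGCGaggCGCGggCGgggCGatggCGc
Ehmt2: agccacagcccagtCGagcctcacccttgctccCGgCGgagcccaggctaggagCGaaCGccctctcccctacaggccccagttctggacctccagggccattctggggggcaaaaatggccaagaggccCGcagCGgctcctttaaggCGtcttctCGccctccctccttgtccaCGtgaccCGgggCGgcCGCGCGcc
They hold 12, 24 and 15 CpG, where the median of 32851 such windows is 5. Fewer CpG than in these windows were found in 70.6%, 92.8% and 77.4% of all windows. The GC box GGGCGG, searched on both strands, occurs once upstream of Setdb1 and Ehmt2, has 2 matches upstream of Ehmt1, and is present in 31.1% of all windows. The E-box CACGTG, which reads the same on both strands, occurs only in the Ehmt2 window of these 3 (5.26% of all windows). The ETS motif CCGGAAG has 2 matches upstream of Setdb1 and none in the other windows (6.29% of all windows, both strands). The other Ehmt2 start has 27 CpG in its window (95.5% of windows have fewer), 2 GC boxes and no E-box. Motif letters may overlap the marked CpG, and a match is a match of letters only.

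The order of the family's levels in control oocytes was Suv39h2, Setdb1, Suv39h1, Setdb2, Ehmt1 and Ehmt2, from 47.2 ± 4.12 to 0.197 ± 0.0981 RPKM. Suv39h2 exceeded Setdb1 in all 6 control libraries, although the ranges of the pair overlap through f/+; Zp3-cre replicate 4. Setdb1 and Suv39h1 did not differ beyond their spread: Setdb1 was the higher in 4 of 6 control libraries, those of f/+; Zp3-cre. Suv39h1 was 3.73 times as high as Setdb2 with ranges apart. Setdb2 was above Ehmt1 in all 6 controls but in only 8 of all 10 libraries, and Ehmt1 was 24.7 times as high as Ehmt2.

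**Figure D3:**
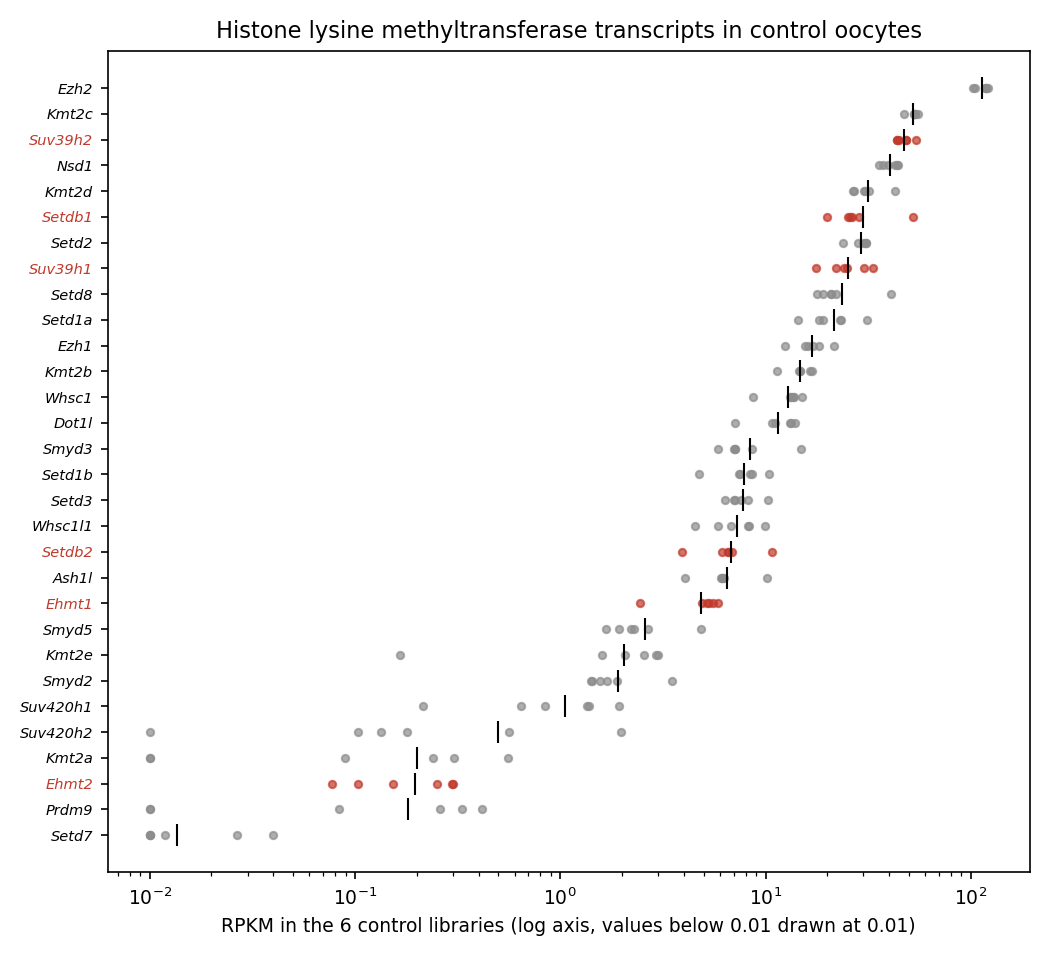
RPKM of 30 histone lysine methyltransferase genes in the 6 control libraries (horizontal log axis; values below 0.01 are drawn at 0.01), ordered by mean, with a point for each library and a black bar at the mean; H3K9 methyltransferase genes are red. Suv39h2 at 47.2 RPKM and Ehmt2 at 0.197 RPKM are the highest and lowest of the red genes.

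Among 30 histone lysine methyltransferase genes, the 6 ranked 3, 6, 8, 19, 21 and 28 by control level. Suv39h2 lay between the H3K4 methyltransferase gene Kmt2c (52.5 ± 2.66 RPKM) and Nsd1, an H3K36 methyltransferase gene (40.4 ± 3.51). Setdb1 lay between Kmt2d (31.5 ± 5.83 RPKM) and Setd2 (29.1 ± 2.70), and Suv39h1 between Setd2 and the H4K20 methyltransferase gene Setd8 (23.6 ± 8.54). Setdb2 was flanked by Whsc1l1 (7.27 ± 1.94 RPKM) and Ash1l (6.48 ± 2.00), and Ehmt1 by Ash1l and Smyd5 (2.60 ± 1.15). Ehmt2 stood with Kmt2a (0.200 ± 0.214 RPKM) and Prdm9 (0.182 ± 0.178), genes whose SD over the control libraries was about as large as their mean. Against all tested genes, Suv39h2 was above 92.1%, Setdb1 above 86.4%, Suv39h1 above 84.0%, Setdb2 above 53.4% and Ehmt1 above 45.6%. Ehmt2 was above 0.609% of them, but it missed the filter that those genes passed. Its low place there follows largely from the filter, and genes below the filter were not ranked.

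The summed RPKM of the 6 genes was compared with and without Setdb1, as a description with no test. The sum was 78.2 to 90.3 RPKM in mutants and 103 to 141 in controls. Without Setdb1 it was 74.2 to 89.0 RPKM in mutants and 77.6 to 94.1 in controls, ranges that overlap, with means of 81.6 ± 6.33 and 84.4 ± 6.12. Setdb1 made up 17.5% to 37.3% of the sum in controls and 1.46% to 5.19% in mutants. Suv39h2 made up 38.4% to 47.3% in controls and 48.0% to 59.4% in mutants. These are shares of a sum that is smaller in mutants, and the RPKM of Suv39h2 itself overlapped between the groups. Ehmt1 took 2.28% to 5.13% in controls and 7.55% to 13.9% in mutants, and by rank it passed Setdb1 in every mutant library. In all 4 mutants Setdb1 was the lowest of the family but for Ehmt2.

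**Figure D4:**
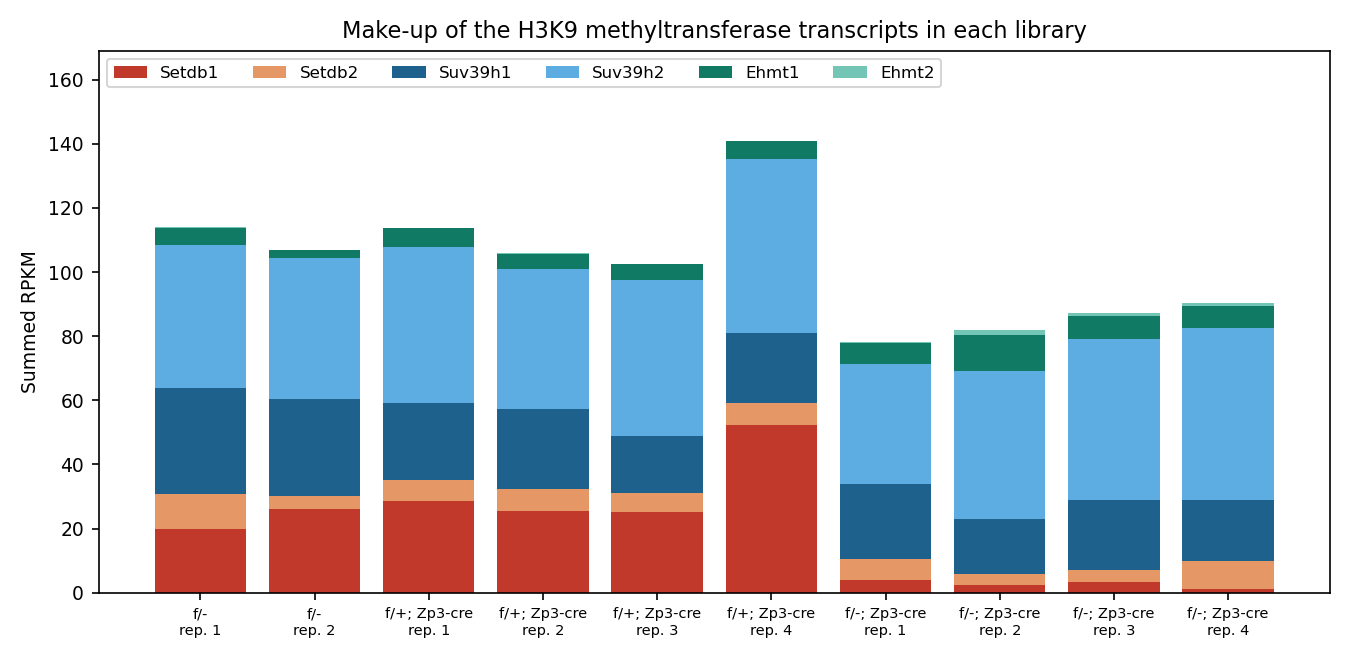
Summed RPKM of the 6 genes in each library (vertical axis, linear from 0; bars are single libraries in the order f/-, f/+; Zp3-cre and mutant f/-; Zp3-cre), with the part of each gene in colour. The 4 mutant bars reach 78.2 to 90.3 RPKM and the 6 control bars 103 to 141, and the Setdb1 part at the base of the bar is 1.31 to 4.06 RPKM in mutants.

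Genes that work with or against these enzymes were counted from 4 lists. Of 19 tested partners and readers of the 21 in the table, 1 fell, none rose and 18 did not pass (median log2 difference 0.20, against 0.03 for all tested genes). With 5.33% of all tested genes called, 1 of 19 is near the background. The gene that fell was Hells, a remodeller of the SNF family, at 10.6 ± 1.37 RPKM in mutants and 18.3 ± 3.60 in controls (limma adjusted p = 0.031). Atf7ip, which encodes a nuclear partner that stabilises SETDB1, had 60.6 ± 5.82 RPKM in mutants and 43.6 ± 7.90 in controls (limma adjusted p = 0.083), and Morc2a, whose product acts with the HUSH silencing complex, 18.6 ± 3.59 and 12.3 ± 1.95 (0.067).

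None of 9 tested H3K9 demethylase genes of the 11 passed by limma, and none had an unadjusted p below 0.05 (median log2 difference 0.11). Jmjd1c, a member of the KDM3 family, was the nearest, at 6.91 ± 2.60 RPKM in mutants and 5.04 ± 1.05 in controls (limma adjusted p = 0.41). Kdm4a had 9.55 ± 2.02 RPKM in mutants and 10.8 ± 0.809 in controls (limma adjusted p = 0.58), and Kdm7a 25.8 ± 1.78 and 29.0 ± 4.25 (0.58). Of 4 PRDM genes linked to H3K9 methylation 3 were tested and none passed by limma (1 had an unadjusted p below 0.05), with Mecom at 0.705 ± 0.704 RPKM in mutants and 1.57 ± 0.532 in controls (adjusted p = 0.19).

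Of 20 tested genes for other histone lysine methyltransferases, 1 rose, none fell and 19 did not pass (median log2 difference 0.09), again near the 5.33% called over all tested genes. Setd2, which encodes the enzyme for H3K36 trimethylation, rose from 29.1 ± 2.70 to 43.7 ± 2.40 RPKM (log2 difference 0.58 ± 0.11 SE, limma adjusted p = 0.0077). Setd1b had 11.8 ± 2.42 RPKM in mutants and 7.85 ± 1.87 in controls (limma adjusted p = 0.15), and Kmt2c 43.9 ± 3.18 and 52.5 ± 2.66 (0.16).

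The genes whose profile over the 10 libraries was most like that of each member were found by the root mean square difference of log2(RPKM + 0.5) after each gene's own mean was removed. For Setdb1 they were the transcription factor gene Sox8 (0.39), the predicted gene Gm10466 (0.45) and the ganglioside synthase gene St3gal5 (0.52). Sox8 had 1.85 ± 0.932 RPKM in mutants and 15.4 ± 2.80 in controls. Setdb2 was nearest to Mettl7a2 (0.19), Suv39h1 to Ybey (0.13), Suv39h2 to Golga3 (0.08) and Ehmt1 to Tfap2b (0.14). Tfap2b, an AP-2 transcription factor gene, had 2.19 ± 0.793 RPKM in mutants and 1.07 ± 0.458 in controls. Likeness in 10 libraries is a description of these libraries only.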

How the data were processed

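RNA-seq libraries of 10 oocyte pools were compared. Per the labels' protocols, RNA was amplified as cDNA with the NuGen Ovation kit before a TruSeq DNA preparation, so strand was not marked. Amplification can add spread between libraries. The deposited values are RPKM per RefSeq transcript, made by the authors. The tools bcl2fastq 1.8.3, STAR and the build mm10 are listed in the submitters' processing notes. How reads were counted was not stated in the sources used. Reads that match several transcripts or genes may be split or counted in each.

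A gene with several rows was represented by its highest row on average. Tests used log2(RPKM + 0.5) for the 11338 genes averaging 0.5 RPKM or more, with limma 3.58.1 in R 4.3.3 (empirical Bayes trend), 2 levels for mutant against all controls, 3 groups for the other comparisons, and Benjamini-Hochberg adjustment over all tested genes (threshold 0.05). Fold changes of low genes are understated on this scale. Setdb1 also had an exact permutation test. Scripts were tested on simulated data. The members and lists were chosen with earlier results of these data known. Named beyond the members were up to 3 genes per list with the smallest p, the neighbours in control level, and the nearest profiles (3 for Setdb1, 1 for the others). Marker genes other than Kit, Nobox, Zp2, Cyp19a1 and Pecam1, and genes that share exons with a member, fall outside this rule and were named after their values were seen.

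Depth came from the spacing of low RPKM with GENCODE M21 lengths for 97.7% of rows; 68.9% to 73.1% of low values lay within 0.1 of a whole read, so reads are approximate, cover counting error only, and are not independent molecules. No Setdb2 length was matched. Promoter windows came from RefSeq; 6 of 6 genes matched. Protein sequences were not used here.

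Same-numbered libraries of different groups did not deviate together (correlation of deviations from -0.05 to 0.03 over 8 pairs), so no pairing by replicate number was seen. The deviations of the 2 f/- libraries from their mean mirror each other, so pairs with them are not independent and pairing is not excluded.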

Additional observations from a re-analysis of the deposited data

Results flagged for a closer look

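The family gave 18 sets of 4 or 6 values. In 4 of them an end value had a gap to its neighbour that was large for the range of the set. About 1 in 20 sets does so by chance, but these sets are not independent. Each set of 6 controls includes the 4 f/+; Zp3-cre values. Setdb1 in f/+; Zp3-cre replicate 4, at 52.5 RPKM, stood apart both from the other 3 libraries of its genotype and from the other 5 controls. In the same library Suv39h2 was the highest of all libraries (54.2 RPKM) and Ehmt2 the lowest (0.0772 RPKM). Without it, the Setdb1 difference between mutants and controls was -3.02 on the log2 scale, against -3.20 with it. Ehmt1 in mutant replicate 2, at 11.4 RPKM, stood apart from the other 3 mutants, and Ehmt2 was also highest there (1.36 RPKM). Ehmt1 in f/- replicate 2, at 2.44 RPKM, stood apart below the other 5 controls.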

How the results depend on the processing

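Setdb1 fell in mutants against all controls under all 21 alternatives, with log2 differences of -3.39 to -2.69 (-3.38 to -2.94 leaving out 1 library). Against f/- the number of family genes called was 0 with array weights, 3 at a threshold of 0.1 (Suv39h1 and Ehmt1 added) and 1 to 2 leaving out 1 library, where Ehmt1 was added without f/- replicate 1. Over all genes that comparison called 369 higher and 180 lower, 682 and 388 at a threshold of 0.1, and 998 and 489 without f/- replicate 1. Between the control genotypes the 5 higher and 3 lower calls rose strongly without f/- replicate 1 but stayed few without f/- replicate 2. Each of these fits left 1 f/- library. Over all genes, 352 higher and 252 lower calls of 11338 became 221 and 136 of 24453 without a filter. They were 807 and 581 with array weights, 149 and 63 at a threshold of 0.01, and 561 and 418 at 0.1. With median centring they were 303 and 339 and with quantile normalization 322 and 337, so lower calls then outnumbered higher ones. Lower calls numbered 415 of 17847 rows with every RefSeq transcript kept, against 252 of 11338 genes. Leaving out 1 library gave 236 to 445 higher and 119 to 356 lower calls. The lower calls were 167 without mutant replicate 1, 164 without mutant replicate 4, and 119 to 159 when any library of f/+; Zp3-cre was left out. The cause was not tested.

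Signs turned only for values near 0 or resting on 1 library. Setdb2 in f/- against f/+; Zp3-cre (0.01) became -0.0017 with a pseudocount of 0.1 RPKM, -0.028 with median centring, -0.0038 with quantile normalization and -0.0092 with array weights, and ranged from -0.67 to 0.68 leaving out 1 library (-0.67 without f/- replicate 1, -0.02 without f/+; Zp3-cre replicate 3). Setdb2 in mutants against f/- ranged from -0.99 to 0.35 (0.35 without f/- replicate 1). Suv39h2 ranged from -0.084 to 0.085 against all controls and from -0.13 to 0.040 against f/+; Zp3-cre.

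With the replicate number as a block, Setdb1 fell by 3.21 in mutants against controls, 140 genes were called lower, and Suv39h2 against f/- was -0.045. No pairing by these numbers was seen, and the block changed no call of the family. Ehmt2 rests on few reads per library, and the 2 f/- libraries limit every comparison with them.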
